A study of Mus musculus with 24 samples.

Results

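The syndecans and glypicans are the 2 main families of cell surface proteins that carry heparan sulfate chains. Their members in the mouse are the syndecans *Sdc1*, *Sdc2*, *Sdc3* and *Sdc4* and the glypicans *Gpc1* to *Gpc6*. Every microarray probe whose transcript accession belongs to one of these 10 genes was taken, which gave 6 syndecan and 9 glypican probes among the 56605 tested, and 10 of the 23787 genes that could be named. Hippocampal RNA came from 48 male Swiss-Webster mice. They were aged 12 weeks at the start of the experiment and were then left to habituate to single cages before treatment. Over the 12 h of the dark phase, corticosterone-treated mice drank water with 100 µg/ml of corticosterone and 0.45% hydroxypropyl-β-cyclodextrin, a sugar ring that keeps the hormone dissolved, and control mice, their brothers, drank water with 0.45% of the cyclodextrin alone. Tissue was taken in the first, the fifth or the ninth hour of the following resting period, from 8 corticosterone-treated and 8 control animals each, so that the comparisons show how long a night of raised glucocorticoid left a trace in gene expression. Each of the 24 arrays held RNA of 1 control and 1 corticosterone-treated mouse, without pooling.

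Heparan sulfate is a long, sulfated sugar chain that binds growth factors, morphogens and matrix proteins and presents them to their receptors. Syndecans span the membrane and link the chains outside the cell to the cytoskeleton and to signaling proteins inside it, whereas glypicans are held on the outer face of the membrane by a lipid anchor and can be released from it. In the brain both families take part in axon guidance, in the formation of synapses and in the exchange of signals between astrocytes and neurons.

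Control RNA always carried the dye Cy3 and RNA of corticosterone-treated mice the dye Cy5. A constant preference of a probe for one dye and an effect of treatment cannot be told apart at a single hour, but such a preference cancels when the effect is compared between hours or when hours are compared within one treatment. The arrays lay on 3 slides, with 2, 2 and 4 arrays of the first, the fifth and the ninth hour on slide 1 and 3, 3 and 2 on slides 2 and 3 each. In the Cy3 channel 60.8 to 67.2% of an array's spots, and in the Cy5 channel 64 to 73.5%, lay well above background. Of the 15 member probes, 11 were well above background on all arrays in both channels, and the 3 probes of *Sdc1* were the dimmest. All signals below are normalized intensities on a linear scale. A gene with several probes is described by its brightest, the leading probe, unless another is named. A change passed the test at an adjusted p under 0.05 in the separate channel test of limma, adjusted over all probes. Fold changes, standard errors and intervals come from the fit without an offset and p values from the fit with an offset of 50.

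Corticosterone left its largest trace among these genes on *Sdc4*, which rose in the first and the fifth hour and had no detectable difference in the ninth. In the first hour 2 of the 15 member probes passed the test, those of *Sdc4* (higher) and *Gpc3* (lower), against 17.5% of all probes (8.85% higher and 8.67% lower). In the fifth hour 4 probes passed, all higher, against 18.1% of all probes (8.62% higher and 9.47% lower), and they belonged to *Sdc4*, *Gpc2* and *Gpc4* (2 probes). In the ninth hour 5 probes passed, again all higher, against 14% of all probes (7.01% higher and 6.97% lower), and they belonged to *Gpc1*, *Gpc4* (2 probes) and *Sdc1* (2 probes). As absolute log2 fold changes, the 15 probes had medians of 0.13, 0.20 and 0.12 at these hours, beside 0.13, 0.13 and 0.12 over all probes. With 15 probes these counts are small, the 5 of the ninth hour came from 3 genes, and they fell to 1 in the fifth hour and 0 in the ninth without slide 1, so nothing is read from the share of members that passed.

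**Figure D1:**
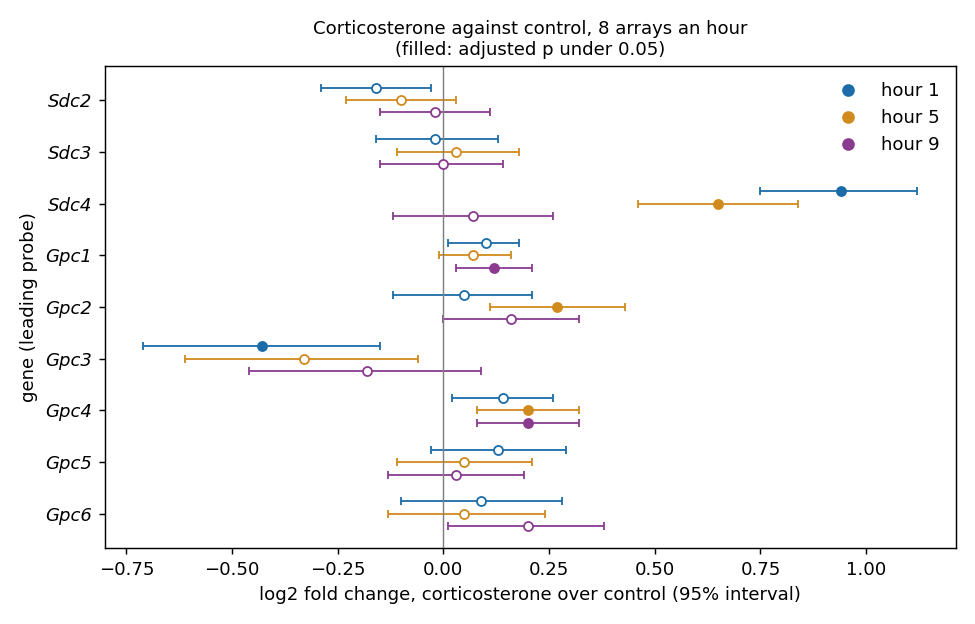
Log2 fold change of the leading probe of each gene but *Sdc1*, which was near background, corticosterone-treated over control mice, at hours 1, 5 and 9 (8 arrays each; bars: 95% interval of the fit without offset; filled points: adjusted p under 0.05). *Sdc4* stands at 0.94 and 0.65 at hours 1 and 5 and at 0.07 at hour 9, *Gpc3* lies below 0 at each hour, and the other points lie within 0.30 of 0.

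*Sdc4* codes for syndecan-4, which is widely expressed, sits in focal adhesions and binds protein kinase C alpha. Because its changes were the largest, the start of this gene is shown here. Promoter sequences from RefSeq were matched by symbol for 7 of the 10 genes; *Sdc2*, *Gpc1* and *Gpc6* were not matched. The promoter of *Sdc4* in build GRCm38.p6 lies at chr2:164443139-164443438 on the minus strand and is written 5′ to 3′, from 250 bases before to 50 after the start, with capitals marking the GC boxes (GGGCGG) and the TATA box (TATAA) found on either strand.
*Sdc4* promoter: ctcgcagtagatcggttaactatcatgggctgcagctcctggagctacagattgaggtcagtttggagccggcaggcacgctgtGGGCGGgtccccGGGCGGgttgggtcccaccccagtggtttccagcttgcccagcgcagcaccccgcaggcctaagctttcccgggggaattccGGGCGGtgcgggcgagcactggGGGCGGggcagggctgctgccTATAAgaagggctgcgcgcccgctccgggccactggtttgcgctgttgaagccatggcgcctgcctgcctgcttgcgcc
It holds 4 GC boxes, all on the strand shown, and 1 TATA box that begins 29 bases before the start; none of these matches overlap. The glucocorticoid half-site AGAACA and the E box CACGTG had no match in this window, nor in the windows of the other 6 genes, which says only that these letters are not there. Of 32851 promoters of the same length in the table, 35.7% hold the GC box, 24.9% the TATA box, 19% the half-site and 7.15% the E box. The GC box occurred in all 7 windows, and the TATA box also in those of *Sdc1* (2 matches) and *Gpc5* (1 match).

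In control mice of the first hour, the *Sdc4* signal ran from 346 to 478 with a median of 411. In corticosterone-treated mice of that hour it ran from 635 (634.5) to 1214.5 with a median of 777. Every one of the 8 treated animals lay above the highest control animal. The means were 414 ± 46.9 and 805 ± 185 (SD, n = 8 each), a log2 difference of 0.94 (SE 0.0933, 95% interval 0.75 to 1.12, adjusted p = 9.6e-11), or 1.91 times, and the ratio was above 0 on 8 of 8 arrays. In the fifth hour control mice ran from 350 (349.6) to 453 with a median of 382 and treated mice from 478 to 739 with a median of 652 (651.5). The groups again did not overlap. The means were 401.1 ± 41.2 and 632 ± 91.6 (SD, n = 8 each), a log2 difference of 0.65 (SE 0.0933, adjusted p = 1.0e-06), with 8 of 8 ratios above 0. In the ninth hour control mice ran from 318 to 544 with a median of 463 and treated mice from 396 to 552 (551.5) with a median of 461 (460.5). These groups overlapped, 2 treated animals lying above the highest control animal, with means of 459 ± 80.3 and 478 ± 55.9 (SD, n = 8 each), a log2 difference of 0.07 (SE 0.0933, 95% interval -0.12 to 0.26, adjusted p = 0.67) and 6 of 8 ratios above 0.

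**Figure D2:**
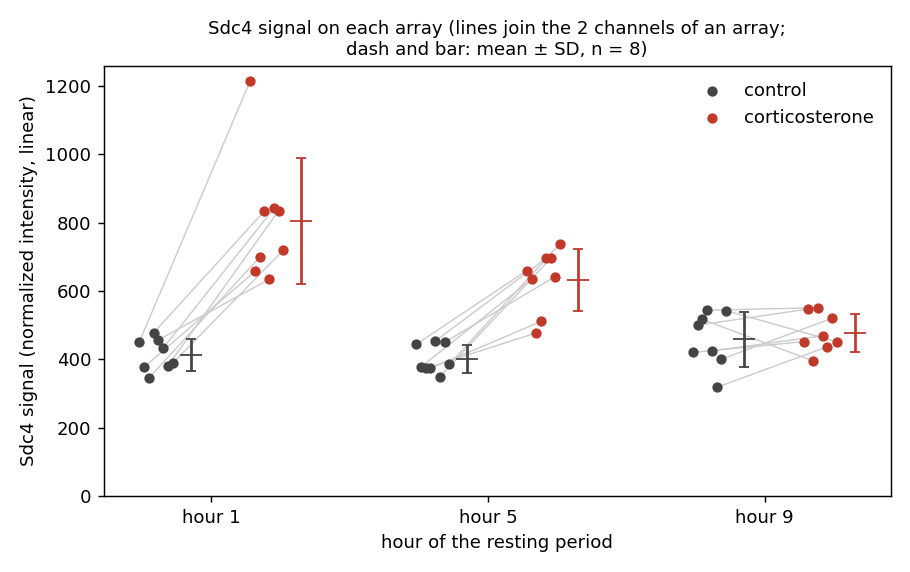
Normalized *Sdc4* signal (linear scale) of the control and the corticosterone channel on each of the 24 arrays, by hour of the resting period. Lines join the channels of an array, and dashes with bars give mean ± SD (n = 8). All treated animals lie above all control animals at hours 1 and 5, and the groups overlap at hour 9.

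Within slides the mean log2 ratio of *Sdc4* was 1.11, 0.76 and 0.99 on slides 1, 2 and 3 in the first hour, 0.66, 0.47 and 0.81 in the fifth and -0.03, 0.30 and 0.06 in the ninth. Both earlier hours thus lay above the ninth on every slide. The fall of the effect was tested directly, in a comparison that a constant dye preference does not touch. From hour 1 to hour 9 the corticosterone effect fell by 0.86 (log2; SE 0.132, adjusted p = 1.6e-05), and *Sdc4* was the only one of the 15 member probes that passed this test, against 0.827% of all probes (0.574% lower). Between the fifth and the ninth hour the change of effect was -0.58 (SE 0.132, adjusted p = 0.0503), which missed the threshold but passed in 7 of 17 alternatives, among them that with slide as a block (-0.58, adjusted p = 0.040) but not those without slide 1 (-0.46, adjusted p = 0.98) or slide 3 (-0.47, adjusted p = 0.89), and between the first and the fifth it was -0.29 (SE 0.132, adjusted p = 1.0). In these comparisons 0 of the member probes passed in limma, against 0.0830 and 0.0389% of all probes. At an unadjusted p under 0.05 it was 1 member probe each, beside 2934 and 2530 of all 56605 probes.

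Ordered by mean, the 6 groups ran from treated mice of the first hour over those of the fifth and the ninth to control mice of the ninth, the first and the fifth hour. In treated mice *Sdc4* fell by 0.73 from the first to the ninth hour (SE 0.109, adjusted p = 2.6e-06), again as the only member probe, against 4.02% of all probes (1.82% lower). The neighbouring steps in treated mice, -0.33 from the first to the fifth (adjusted p = 0.16) and -0.40 from the fifth to the ninth hour (adjusted p = 0.051), did not pass, though the latter did with slide as a block (-0.43, adjusted p = 0.027). From hour 1 to hour 9 the difference was -0.89, -0.67 and -0.72 within slides 1, 2 and 3. In control mice the same difference was 0.13 (SE 0.109, adjusted p = 0.78), with 0.25, -0.20 and 0.22 within the slides. 1 treated animal of the first hour stood apart at 1214.5, and without its array the first hour still passed (log2 fold change 0.87, adjusted p = 5.8e-10), an alternative chosen after the value was seen.

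The genes whose log2 ratio followed that of *Sdc4* most closely over the 24 arrays, among 15436 genes with a signal of 50 or more, were *Ramp3*, *Tns3*, *Pnpla2*, *Tekt4* and *Sun2*, with Pearson r of 0.85, 0.83, 0.83, 0.82 and 0.82. Spearman's rho was 0.85, 0.83, 0.89, 0.87 and 0.79, and without the 2 arrays farthest from the median of *Sdc4* r was 0.82, 0.76, 0.84, 0.82 and 0.74. Within slides r was between 0.69 and 0.96 for each of them. Being picked as the highest of so many, these values are a description and carry no p. The arrays share the 3 hours, and within single hours r was lower in most cases, from 0.39 to 0.57 in the first hour, from 0.09 (*Tns3*) to 0.60 in the fifth and from 0.12 (*Tekt4*) to 0.95 in the ninth. Their log2 fold changes at the 3 hours were 0.60, 0.36 and 0.02 for *Ramp3*, 0.31, 0.10 and -0.17 for *Tns3*, 0.76, 0.55 and 0.15 for *Pnpla2*, 1.21, 0.62 and -0.05 for *Tekt4* and 0.19, 0.09 and -0.10 for *Sun2*, so that the sizes differed widely among them.

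Among the glypicans, *Gpc4* displayed a rise at both later hours. It codes for glypican-4, which astrocytes release and which promotes the formation of active synapses. Its leading probe had control signals from 1608 to 1749 (median 1664) and treated signals from 1785 to 2160 (2160.3; median 1887) in the ninth hour. All treated animals lay above all control animals, although the difference was small. The log2 fold change was 0.20 (SE 0.0597, adjusted p = 0.012), with 8 of 8 ratios above 0 and 0.18, 0.29 and 0.16 within the slides. In the fifth hour it was 0.20 (SE 0.0597, adjusted p = 0.011, 7 of 8 ratios above 0), and in the first 0.14 (adjusted p = 0.079, 5 of 8). The change of effect between the first and ninth hour was 0.06 (adjusted p = 1.0), so a constant dye preference cannot be told apart from a treatment effect here. Without slide 1 the calls of both hours were lost at values of 0.19 and 0.23 (adjusted p = 0.069 and 0.14), as was that of the fifth hour without slide 3 (0.18, adjusted p = 0.14) and that of the ninth without slide 2 (0.17, adjusted p = 0.067).

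The other 2 probes of *Gpc4*, which both carry the accession of a predicted transcript, did not behave alike. A_55_P1992495, near the lower end of detection with a mean signal of 52.1, was higher by 0.29 (SE 0.0974, adjusted p = 0.030) in the fifth and by 0.39 (SE 0.0974, adjusted p = 0.0054) in the ninth hour, with 7 of 8 ratios above 0 at each. A_55_P2733337, with a mean signal of 913, had -0.08, -0.07 and -0.02 at the 3 hours (adjusted p from 0.40 to 0.88). The rise of this gene was thus seen on 2 of its 3 probes, and the values of the remaining probe lay just below 0.

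**Figure D3:**
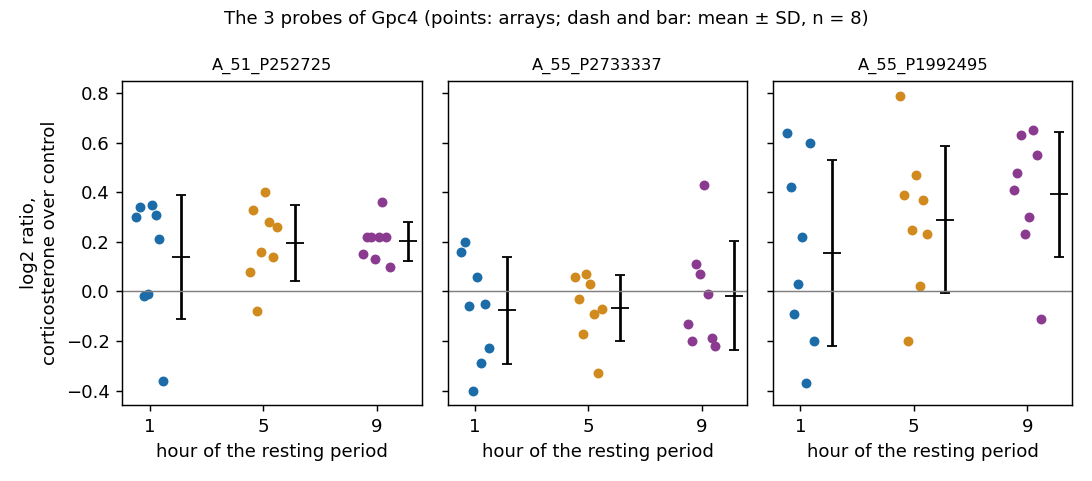
Log2 ratio of corticosterone over control on each array for the 3 probes of *Gpc4*, by hour of the resting period (points: arrays; dashes with bars: mean ± SD, n = 8). The first probe has a ratio above 0 on 8 of 8 arrays at hour 9, the second scatters around 0, and the third lies above 0 on 7 of 8 arrays at hours 5 and 9.

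*Gpc1*, the glypican of mature neurons, had a high signal in all groups, with means between 14578 and 16559. In the ninth hour it was higher in treated mice, 15828 ± 716 against 14578 ± 841 (SD, n = 8 each), a log2 difference of 0.12 (SE 0.0436, adjusted p = 0.039, 7 of 8 ratios above 0). This call was lost under 8 of the 17 alternative settings, with values of 0.15, 0.15 and 0.07 without slides 1, 2 and 3 (adjusted p = 0.14, 0.073 and 0.30). *Gpc2*, known from growing axons, had control signals from 151.9 to 201.1 (median 186.9) and treated signals from 191.7 to 248.6 (median 220.3) in the fifth hour. 7 of the treated animals exceeded the highest control animal. The log2 fold change was 0.27 (SE 0.0802, adjusted p = 0.013, 8 of 8 ratios above 0), with 0.24, 0.27 and 0.29 within the slides. Without slide 1 or slide 2 it was 0.28 and 0.27 but no longer passed (adjusted p = 0.062 and 0.098).

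*Gpc3* fell in the first hour. It codes for glypican-3, which restrains growth and Hedgehog signaling. In the first hour its control signals ran from 178 to 322 with a median of 256 (255.5), and its treated signals from 117 to 234 (233.5) with a median of 200.3. The groups overlapped, but the ratio was below 0 on 8 of 8 arrays. The log2 fold change was -0.43 (SE 0.137, adjusted p = 0.020), with -0.47, -0.35 and -0.48 within the slides. Without slide 1 or slide 3 it was -0.42 and -0.40 and did not pass (adjusted p = 0.12 and 0.17). In the fifth hour it was -0.33 (adjusted p = 0.070) and in the ninth -0.18 (adjusted p = 0.37). The ratios of the fifth hour were scattered, from -1.53 to 0.78.

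This scatter moved with markers of fibroblasts and meninges, which can adhere to dissected hippocampus. Of the 6 markers (*Dcn*, *Lum*, *Col1a1*, *Col1a2*, *Igf2* and *Slc6a13*) none passed the test at any hour in limma (2, 4 and 0 at an unadjusted p under 0.05). Their summed signal, most of it from *Dcn*, was 9619 ± 1708 in control and 7844 ± 1679 in treated mice of the first hour (SD, n = 8 each). Its log2 ratio was -0.31 ± 0.471 in the first, -0.31 ± 0.702 in the fifth and -0.18 ± 0.315 in the ninth hour (mean ± SD, n = 8). Over the 24 arrays the log2 ratio of *Gpc3* followed that of the sum with Pearson r = 0.83 (permutation p = 1.0e-05, the smallest that 100000 resamples can give, adjusted p = 0.0010) and Spearman's rho = 0.70 (permutation p = 2.4e-04, adjusted p = 0.012). Without the 2 arrays farthest from the median of the sum r was 0.69. Within slides r was 0.79, 0.94 and 0.52, and within hours it was 0.72, 0.90 and 0.79. Of the 100 relations computed between the 10 genes and 10 marker lists, this was the only one with an adjusted p of r under 0.05, and 3 had an adjusted p of rho under 0.05. In bulk tissue, fewer cells of a type and less RNA per cell cannot be told apart, and the part of these cells in the fall of *Gpc3* was not tested.

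**Figure D4:**
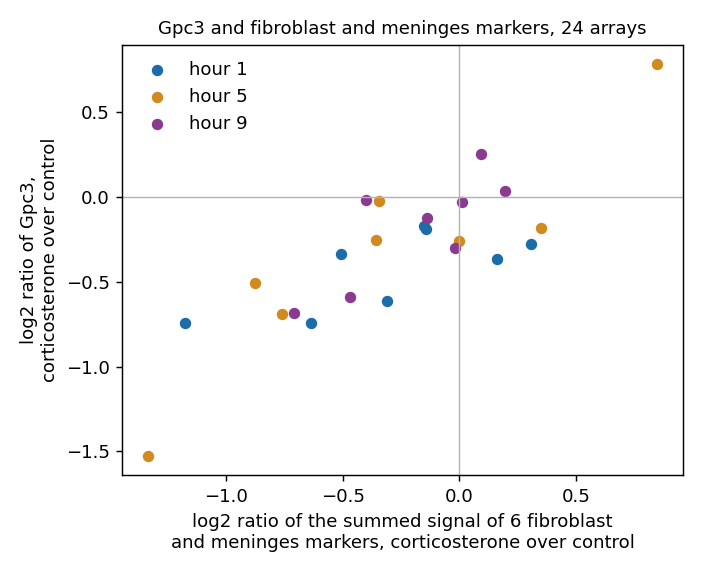
Log2 ratio of *Gpc3* against the log2 ratio of the summed signal of 6 fibroblast and meninges markers, corticosterone over control, on 24 arrays colored by hour. The points rise together at each hour (r = 0.83 over all), and the lowest and highest *Gpc3* ratios, -1.53 and 0.78 at hour 5, belong to the arrays with the lowest and highest marker ratios.

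*Sdc1*, the syndecan of epithelia and plasma cells, was near background. Its leading probe was well above background in 2 of the 24 control and 9 of the 24 treated channels. In the ninth hour its signal was 24 ± 7.32 in control and 33.8 ± 5.74 in treated mice (SD, n = 8 each), and 1 control and 5 treated animals were well above background. The probe passed as higher (adjusted p = 0.015, 7 of 8 ratios above 0), but 7 control signals were not well above background, so no size is given for the difference. The call was lost with the scanner's processed signals (adjusted p = 0.056) and without slide 1 (adjusted p = 0.34). The other 2 probes were well above background in 3 animals of that hour at most, and no size is given for them either. In the fifth hour the leading probe was well above background in 0 control and 3 treated animals and did not pass (adjusted p = 0.20).

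*Sdc2*, *Sdc3*, *Gpc5* and *Gpc6* had no change that passed at any hour. *Sdc2*, found on dendritic spines, came closest in the first hour, with -0.16 (SE 0.0638, adjusted p = 0.061, 7 of 8 ratios below 0) and means of 1330 (1329.5 ± 67.4) in control and 1193 ± 103 in treated mice (SD, n = 8 each). 6 of the treated animals lay below the lowest control animal, and under 5 of 17 alternatives *Sdc2* passed as lower in this hour, with values from -0.18 to -0.13. *Sdc3*, the neuronal syndecan and a receptor of pleiotrophin, had -0.02, 0.03 and 0.00 at the 3 hours, with 95% intervals that stayed between -0.16 and 0.18. *Gpc5* had 0.13, 0.05 and 0.03, and its second probe -0.02, -0.08 and -0.07. *Gpc6* had 0.09, 0.05 and 0.20, the last with an interval from 0.01 to 0.38 and an adjusted p of 0.16.

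In control mice none of the 15 member probes differed between hours in limma. At an unadjusted p under 0.05 the counts were 1 (hour 1 to 5), 1 (hour 5 to 9) and 2 (hour 1 to 9). Over all 56605 probes 4078, 3587 and 5801 lay under this unadjusted limit. After adjustment 0.00530, 0.0336 and 0.537% of all probes passed. From hour 1 to hour 9 *Gpc5* had the smallest adjusted p, as its control signal went from 415 ± 51.7 to 479 ± 63.8 (SD, n = 8 each), a log2 difference of 0.20 (SE 0.0925, adjusted p = 0.41). Over the 24 control channels the log2 signals most like that of *Gpc5*, of 15436 genes, were those of *Tmem160*, *Dnajc16*, *Commd5*, *Gm4371* and *D630023F18Rik*, with r from 0.79 to 0.86, rho from 0.74 to 0.83, and r from 0.72 to 0.85 without the 2 farthest channels. Within slides r was between 0.57 and 0.96. In treated mice 0 member probes passed from hour 1 to 5 or from hour 5 to 9, against 0.546 and 0.661% of all probes. Without adjustment, 2 and 3 member probes had a p under 0.05 in these steps, beside 5394 and 5835 of all 56605 probes.

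Of 11 genes of linkage and chain elongation 1 passed at each hour, beside 20.7, 20.8 and 15.6% of the leading probes of all named genes at the first, the fifth and the ninth hour. Of these 23787 probes 2457, 2356 and 1991 were higher and 2465, 2598 and 1715 lower, and the counts of the lists below stand beside the same shares. The linkage gene that passed was *Extl2*, a transferase that acts on the linkage region, and it was higher by 0.27 (SE 0.0427, adjusted p = 2.3e-06), 0.25 and 0.23, with 8 of 8 ratios above 0 at each hour. Of 18 genes that modify the chain 2, 1 and 1 passed. *Papss1*, which makes the sulfate donor, fell by 0.19 in the first (SE 0.0515, adjusted p = 0.0036) and by 0.21 in the fifth hour (adjusted p = 0.0018, 7 of 8 ratios below 0 at both). *Hs6st1*, a 6-O-sulfotransferase, fell by 0.27 in the ninth hour (SE 0.0456, adjusted p = 1.5e-05, 8 of 8 below 0), with -0.01 in the first, and this change of effect of -0.26 passed its own test (adjusted p = 0.017). Both calls of *Papss1* were lost without a slide (slide 2 in the first hour, adjusted p = 0.13, and slide 3 in the fifth, adjusted p = 0.18). The remaining call, a rise of *Hs3st3b1* in the first hour, came from a probe under a signal of 50.

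Of 10 genes of chain editing and breakdown 1, 3 and 1 passed, all higher. *Sgsh*, a lysosomal sulfatase of heparan sulfate, rose by 0.44, 0.59 and 0.45 (SE 0.0747; adjusted p = 1.2e-05, 3.8e-08 and 2.2e-05, 8 of 8 ratios above 0 at each hour), and the lysosomal enzyme *Idua* by 0.29 in the fifth hour (SE 0.0858, adjusted p = 0.010, 7 of 8 above 0). Of 10 genes of shedding and release 1, 2 and 2 passed. *Gpld1*, a phospholipase that cuts the lipid anchor by which glypicans are held, rose by 0.25, 0.23 and 0.19 (SE 0.0590; adjusted p = 0.0012, 0.0023 and 0.016, 8, 7 and 8 of 8 ratios above 0). *Adam17*, a protease that sheds membrane proteins, fell by 0.36 in the fifth hour (SE 0.113, adjusted p = 0.017, 7 of 8 below 0), and *Timp3*, an inhibitor of such proteases, fell by 0.26 in the ninth (SE 0.0722, adjusted p = 0.0078, 7 of 8 below 0). Each of these calls but those of *Sgsh* and the first of *Gpld1* was lost without 1 or more slides. Over 17 alternatives the value of *Adam17* in the fifth hour ran from -0.6 to -0.22.

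Of 12 genes for partners of syndecans inside the cell 4, 5 and 3 passed at the 3 hours, of which 2, 2 and 1 were higher. Of all leading probes 20.7, 20.8 and 15.6% passed, and these calls also went in both directions. *Ezr*, which codes for ezrin and links membrane proteins to actin, rose by 0.51 (SE 0.0441, adjusted p = 4.3e-13), 0.36 and 0.31, on 8 of 8 arrays at each hour. *Sdcbp*, which codes for syntenin and binds the tails of syndecans, fell by 0.32 (SE 0.0635, adjusted p = 1.2e-04), by 0.34 and by 0.22, also on 8 of 8 arrays. *Actn4*, an actin crosslinker, fell by 0.12, by 0.12 and by 0.15 (SE 0.0389; adjusted p = 0.012, 0.012 and 0.0021, 8, 7 and 8 of 8 below 0), and *Prkca*, the kinase bound by syndecan-4, rose by 0.23 in the first and by 0.25 in the fifth hour (SE 0.0736, adjusted p = 0.017 and 0.0084, 7 of 8 above 0 at both). The calls of *Actn4* and *Prkca* were each lost without 1 or more slides, as was that of *Sdcbp* in the ninth hour. Of 7 synaptic partners of glypicans 0, 2 and 1 passed, all lower (3 unadjusted in the first hour): the receptor phosphatase *Ptprs* fell by 0.13 in the fifth hour (adjusted p = 0.0070, 8 of 8 below 0), and *Ptprd* by 0.11 in the fifth and by 0.12 in the ninth (adjusted p = 0.037 and 0.029, 7 and 6 of 8 below 0). The call of *Ptprs* was lost in 3 of 17 alternatives, and those of *Ptprd* were kept in 9 and 11 of 17 alternatives. Over these alternatives the value of *Ptprs* in the fifth hour ran from -0.16 to -0.04, with an adjusted p of up to 0.57 (authors' log2 ratios).

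Of 22 ligands of heparan sulfate 7, 7 and 3 passed, with 3, 3 and 2 higher. *Ptn*, which codes for pleiotrophin, fell by 0.41, by 0.55 and by 0.44 (SE 0.0718; adjusted p = 2.5e-05, 9.3e-08 and 1.5e-05, 8, 8 and 7 of 8 ratios below 0). *Fgf1*, a growth factor that needs heparan sulfate to signal, rose by 0.31, 0.28 and 0.28 (SE 0.05; adjusted p = 3.2e-06, 2.4e-05 and 4.1e-05), and *Lamb1*, a laminin chain of basement membranes, by 0.28, 0.18 and 0.22 (SE 0.0458; adjusted p = 4.9e-06, 0.0018 and 4.1e-04), both on 8 of 8 arrays at each hour. Of 10 other proteoglycans that can carry heparan sulfate 3, 6 and 4 passed, and 12 of these 13 calls were lower. The synaptic adhesion protein *Nrxn3* fell by 0.31 in the first hour and by 0.31 in the ninth (SE 0.0438, adjusted p = 2.4e-07 and 5.1e-07, 8 of 8 below 0), *Tgfbr3*, a coreceptor of TGF-β, fell by 0.23 in the ninth (adjusted p = 3.3e-04, 8 of 8), and *Col18a1*, a collagen of basement membranes, fell by 0.35 in the fifth (adjusted p = 0.0082, 7 of 8). *Nrxn3* also passed as lower in the fifth hour (-0.29, adjusted p = 6.9e-07). *Tgfbr3* also passed as lower in the first (-0.13, adjusted p = 0.030) and the fifth hour, and *Col18a1* in the ninth. The calls of *Lamb1* in the fifth and the ninth hour, those of *Tgfbr3* in the first and the fifth and those of *Col18a1* were lost without 1 or more slides. The median log2 fold change of this list was -0.14, -0.18 and -0.21, beside -0.0035, -0.0034 and 0.0061 over all leading probes.

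**Figure D5:**
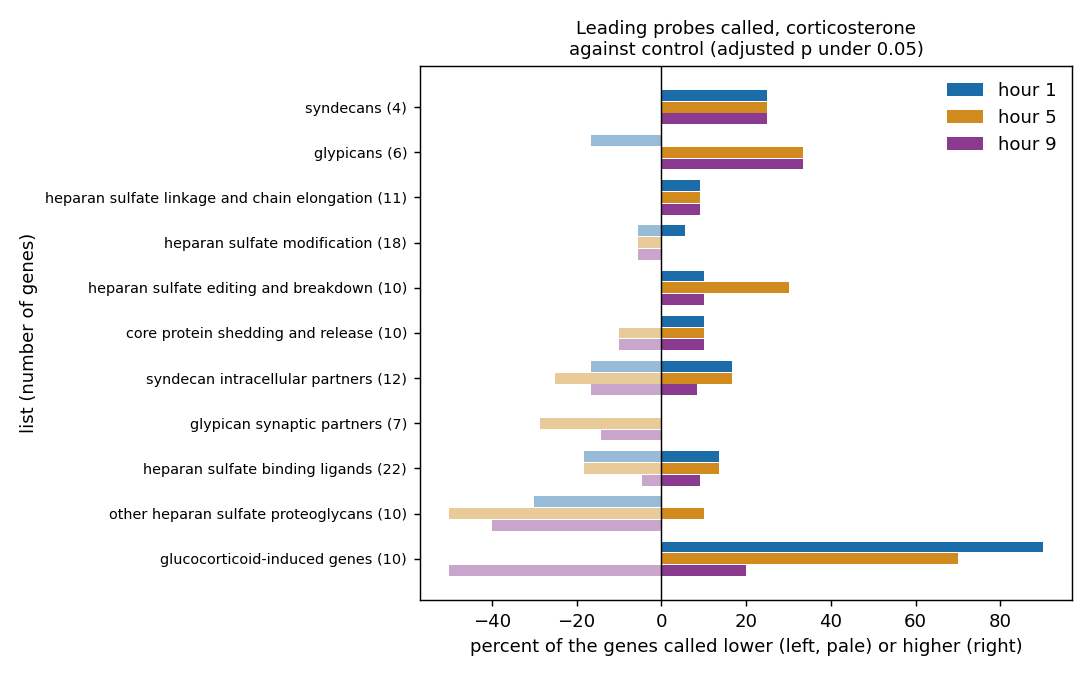
Percent of the genes of each list whose leading probe was called higher (right) or lower (left, pale) in corticosterone-treated than in control mice at hours 1, 5 and 9 (adjusted p under 0.05; number of genes in brackets). The list of other heparan sulfate proteoglycans lies mostly to the left at each hour, and that of glucocorticoid-induced genes to the right at hours 1 and 5 and mostly to the left at hour 9.

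A list of 10 genes known to be induced by glucocorticoids was set beside the members. Of these 9 were higher in the first hour, 7 in the fifth and 2 in the ninth, when 5 were lower. Of all 23787 leading probes 2457, 2356 and 1991 were higher at these hours, and 1715 were lower in the ninth. *Mt1*, *Mt2* and *Sult1a1* rose by 1.18, 1.5 and 2.09 in the first hour (adjusted p = 7.5e-22, 3.3e-20 and 6.0e-21, 8 of 8 above 0), whereas *Klf9* fell by 0.35 in the ninth (adjusted p = 2.0e-08, 8 of 8 below 0). The fall of the effect from hour 1 to hour 9 passed the test in 9 of the 10, where 228 of the 23787 leading probes passed as lower, but the list was chosen with earlier results of these data known. For *Fkbp5*, named here after its values were seen, that change of effect was -0.88 (SE 0.115, adjusted p = 6.5e-07). *Fkbp5* then lay below control in the ninth hour, by -0.28 (adjusted p = 0.014, 0 of 8 ratios above 0), whereas *Sdc4* did not.

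Markers of neurons, astrocytes and oligodendrocytes were well above background on all arrays. The summed signal of 7 endothelial markers, with *Flt1* as its largest part, had a log2 ratio of -0.43 ± 0.195 in the first, -0.23 ± 0.171 in the fifth and -0.04 ± 0.115 in the ninth hour (mean ± SD, n = 8), and 6, 3 and 3 of them passed, 5, 2 and 1 lower. This course ran opposite to that of *Sdc4* over the 24 arrays (r = -0.60, permutation p = 0.0021, adjusted p = 0.053; rho = -0.71, permutation p = 2.0e-04, adjusted p = 0.012), but r was -0.09, -0.23 and 0.22 within the hours and -0.68, -0.78 and -0.32 within the slides, and -0.61 without the 2 farthest arrays. The third such relation was that of *Sdc3* with the sum of 6 mural cell markers (r = 0.63, permutation p = 0.0011, adjusted p = 0.053, and rho = 0.63, permutation p = 0.0011, adjusted p = 0.038), with r of 0.59, 0.51 and 0.85 within the hours, 0.59, 0.85 and 0.79 within the slides and 0.69 without the 2 farthest arrays. The sum of 8 astrocyte markers had 0.16 ± 0.128, 0.10 ± 0.113 and 0.10 ± 0.0477, and that of 8 oligodendrocyte markers -0.09 ± 0.0727, -0.25 ± 0.218 and -0.26 ± 0.167. The sums of neuron, microglia, oligodendrocyte precursor, mural cell, choroid plexus and blood markers had means between -0.07 and 0.29 at the 3 hours, the highest of them that of 3 blood markers in the fifth. The part of these cell types in the changes of the members was not tested.

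The data cover 8 mice per group at 3 hours, and both this number of arrays and, for dim probes such as those of *Sdc1*, the signal limit the precision of small fold changes. Because control RNA was always labeled with Cy3, a dye preference could bear on the single hour differences of *Gpc1*, *Gpc2*, *Gpc3*, *Gpc4* and *Sdc1*, for none of which the change of effect passed. Their calls were lost when 1 or more of the 3 slides were left out, which also leaves fewer arrays. A dye preference could equally bear on the differences of list genes for which no change of effect is given. Examples with much the same value at the 3 hours are *Extl2* (0.27, 0.25 and 0.23) and *Nrxn3* (-0.31, -0.29 and -0.31). Levels were measured as RNA of whole hippocampus, so the amount of core protein, its heparan sulfate chains and the cells that made it were not measured.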

How the data were processed

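The deposited scanner files of 24 two-color arrays were read as median spot intensity per channel, on a linear scale per the file headers, since mean signals are absent. Spots called outliers were set to missing, and the 3671 control spots of 62976 got no weight in the loess fit. Signals were background corrected (normexp, offset 50 for p values and 0 for fold changes), normalized by loess within and by quantiles between arrays, and averaged over copies to 56605 probes. The authors' table holds log2 ratios, matched best by the same steps without the quantile step (median absolute difference 0.00119). Probes were named through RefSeq (34566 probes, 23787 genes). Control and corticosterone channels of 8 arrays per hour were compared by limma's separate channel analysis (intraspot correlation 0.279), in 12 comparisons, with Benjamini-Hochberg adjustment over all probes. The leading probe of a gene is that with the highest mean signal. From each list at most 3 called genes per hour with a signal of 50 or more were named, by smallest p, and other genes are named where the text says so or for their role. Relations to marker sums were tested by 100000 permutations over 100 relations. Members and lists were chosen with earlier results of these data known. Alternatives changed offset, background, normalization, starting signal, filters, test, slide block and arrays left out. The scripts were tested on simulated data. Tools: R 4.3.3, limma 3.58.1, statmod 1.5.0, data.table (1.17.8), Python 3.11.15, numpy 2.4.6, scipy 1.17.1 and matplotlib 3.10.9.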

Additional observations from a re-analysis of the deposited data

Results flagged for a closer look

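In 8 of 135 groups of 8 values, 1 value lay far from the others, and chance alone picks about 1 in 20 groups. For *Sdc4*, the treated mouse of array 1 in the first hour had 1214.5 (nearest 842). On array 7 of the fifth hour *Sdc2* was low in both channels, at 907.7 in the control (nearest 1210.9) and 854.3 in the treated mouse (nearest 1154), and this array also had the most outlier spots, 276. A treated mouse of the ninth hour had 22.2 for *Sdc1* (nearest 30.7), a control mouse of the first hour had 1621.7 for *Sdc3* (nearest 1909.8), and a treated mouse of that hour had 14046.4 for *Gpc1* (nearest 15633.3). Of the log2 ratios, *Gpc4* had 0.36 on array 6 of the ninth hour (nearest 0.22) and *Gpc6* had -0.39 on array 3 of the fifth (nearest 0.01). The corticosterone effect on *Sdc4* differed between hours, by -0.86 from the first to the ninth (adjusted p = 1.6e-05).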

How the results depend on the processing

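*Sdc4* passed in the first and the fifth hour under 17 of 17 alternatives (0.85 to 1.05 and 0.55 to 0.76), as did its change of effect between hours 1 and 9 (-1.05 to -0.69). No member result reversed. Counts of member probes called moved by over 1.5 times in 24 cases, and their cause was not tested unless said. In the first hour (2 called) the count was 4 with Aquantile, 4 with limma on log2 ratios, 5 with the authors' log2 ratios and 1 without slide 1. In the fifth hour (4) it was 1, 2 and 2 without slides 1, 2 and 3. In the ninth (5) it was 3 with Aquantile, 2 with processed signals, 3 with probes of signal 50 or more, which drops the *Sdc1* probes, and 0 and 1 without slides 1 and 2. Treated mice, hour 9 against hour 5 (0), gave 1 with signal 50 or more, above background on 8 arrays or more, slide as a block, and without hour 1 replicate 1. Treated mice, hour 9 against hour 1 (1), gave 2 without slide 3. The change of effect, hour 9 against hour 5 (0), gave 1 with no background correction, Aquantile, signal 50 or more, above background on 8 arrays or more, slide as a block, without slide 2, and without hour 1 replicate 1. Leaving out slides or arrays leaves fewer samples, and leaving out single arrays was chosen after the data were seen. Mice could not be paired across hours, because replicate numbers only count arrays. Within an array the pair of mice is in every fit, and the alternative with limma on log2 ratios tests the differences within arrays. Litter was not part of any fit.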
